A study of Mus musculus with 8 samples.

Results

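The 225 regions described here were CTCF-bound in cortical neurons both with and without NMDA, but stood far lower in the ranking of the NMDA list than in that of the control list. To find them, each region of the NMDA list was paired with the overlapping control region whose summit (the base of strongest signal) was nearest, and pairs with summits at most 100 bp apart were kept. The regions of each list were then ranked by their −log10 p, from percentile 0 for the weakest to 100 for the strongest. A pair was counted as falling when its NMDA percentile lay at least 25 points below its control percentile. Of 36186 NMDA regions and 33815 control regions on chromosomes 1 to 19, X and Y, 28448 formed such pairs and 225 were falling, which is 0.791% of the pairs. Only a pair with a control percentile of 25 or more could fall that far, and of the 23591 such pairs 0.954% were falling. The other 23366 of them are the background used below.

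CTCF binding was mapped by ChIP-seq (sequencing of DNA that an anti-CTCF antibody pulled down) in primary neurons dissociated from the cortex of wild-type Swiss-Webster mice at embryonic day 16 and cultured until day 13 in vitro. Treated neurons were exposed to 50 µM NMDA, an agonist of the NMDA class of glutamate receptors, for 10 minutes and were collected after 50 minutes of recovery without the drug. Control neurons were labelled as having no treatment and had the same genotype, strain and age. Each condition had 2 biological replicates with matched inputs, but 1 peak list made from both replicates, so no test between conditions was possible and everything on ranks below is a description. Peak lists hold no expression values, so the neuronal label could not be checked against marker genes, and other cell types in the cultures were not measured. The lists also hold no read counts, so the depth behind each −log10 p is unknown.

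The zinc fingers of CTCF recognise a long, GC-rich motif. The protein stops the cohesin complex as that complex extrudes chromatin loops, and so marks many domain boundaries and loop anchors. It also binds at many promoters. In neurons it is required for normal expression of clustered protocadherins.

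Many falling pairs lay at gene starts, so the promoter sequences of 8 of them are shown. A promoter here is the window of 300 bases that RefSeq gives for GRCm38.p6 (mm10), with 250 bases before the start and 50 after it, and each shown window lay wholly inside both the NMDA and the control region. The genes were the 6 highest in the ranking of falls at a gene end that had such a window, and the 2 such genes from lists of neuronal genes given further below. Their positions were Sdc4 chr2:164443139-164443438 (minus strand), Adgra3 chr5:50058947-50059246 (minus strand), Fads6 chr11:115297513-115297812 (minus strand), Dvl3 chr16:20516736-20517035 (plus strand), Marchf7 chr2:60209686-60209985 (plus strand), Negr1 chr3:156561544-156561843 (plus strand), Cacna1i chr15:80286988-80287287 (plus strand) and Efna2 chr10:80179232-80179531 (plus strand). Each sequence runs 5′ to 3′ on the strand of its gene. Capitals mark matches on either strand to 3 patterns: the core of the CTCF motif, which is CC and AGGNGGC with any 3 letters between them; AGGNGGCGC, which shares its first letters with the end of that core; and the short CCCTC, which can overlap both.
Sdc4: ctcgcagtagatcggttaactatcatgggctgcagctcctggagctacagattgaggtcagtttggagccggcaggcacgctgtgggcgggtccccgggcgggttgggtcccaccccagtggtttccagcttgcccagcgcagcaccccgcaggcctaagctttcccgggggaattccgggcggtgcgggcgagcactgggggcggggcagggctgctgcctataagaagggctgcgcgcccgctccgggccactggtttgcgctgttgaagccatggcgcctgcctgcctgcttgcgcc
Adgra3: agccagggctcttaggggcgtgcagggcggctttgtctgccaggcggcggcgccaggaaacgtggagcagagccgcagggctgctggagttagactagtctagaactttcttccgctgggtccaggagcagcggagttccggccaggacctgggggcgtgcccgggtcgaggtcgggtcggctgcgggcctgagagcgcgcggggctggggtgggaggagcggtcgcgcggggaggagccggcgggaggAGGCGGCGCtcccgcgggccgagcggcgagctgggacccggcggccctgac
Fads6: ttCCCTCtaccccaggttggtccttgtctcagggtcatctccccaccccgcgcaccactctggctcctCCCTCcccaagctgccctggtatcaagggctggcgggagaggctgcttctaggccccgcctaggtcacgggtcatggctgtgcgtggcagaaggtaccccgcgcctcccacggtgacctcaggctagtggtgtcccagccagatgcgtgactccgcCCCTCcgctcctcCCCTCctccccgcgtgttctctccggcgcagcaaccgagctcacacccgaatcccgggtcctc
Dvl3: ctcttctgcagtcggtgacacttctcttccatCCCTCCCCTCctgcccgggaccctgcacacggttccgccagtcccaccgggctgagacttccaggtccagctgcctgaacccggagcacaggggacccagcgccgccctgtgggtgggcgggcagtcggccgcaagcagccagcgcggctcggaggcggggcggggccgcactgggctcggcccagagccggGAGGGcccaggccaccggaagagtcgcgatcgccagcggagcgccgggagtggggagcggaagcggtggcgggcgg
Marchf7: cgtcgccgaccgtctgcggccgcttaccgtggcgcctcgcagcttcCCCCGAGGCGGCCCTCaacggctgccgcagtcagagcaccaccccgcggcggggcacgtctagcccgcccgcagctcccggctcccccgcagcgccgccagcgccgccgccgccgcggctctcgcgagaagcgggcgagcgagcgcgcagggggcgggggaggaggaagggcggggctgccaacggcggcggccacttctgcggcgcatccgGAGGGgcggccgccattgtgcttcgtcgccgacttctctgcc
Negr1: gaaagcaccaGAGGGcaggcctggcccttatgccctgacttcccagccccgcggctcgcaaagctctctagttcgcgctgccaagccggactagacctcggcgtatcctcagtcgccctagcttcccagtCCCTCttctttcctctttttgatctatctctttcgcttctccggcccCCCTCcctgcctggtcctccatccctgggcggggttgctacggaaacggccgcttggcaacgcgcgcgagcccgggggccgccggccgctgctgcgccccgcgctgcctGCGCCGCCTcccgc
Cacna1i: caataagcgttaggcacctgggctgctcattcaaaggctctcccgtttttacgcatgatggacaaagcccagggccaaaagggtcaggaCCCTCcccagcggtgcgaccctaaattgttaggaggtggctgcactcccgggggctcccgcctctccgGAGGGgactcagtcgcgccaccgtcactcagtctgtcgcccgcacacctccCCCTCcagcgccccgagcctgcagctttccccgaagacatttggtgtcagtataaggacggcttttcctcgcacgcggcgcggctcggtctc
Efna2: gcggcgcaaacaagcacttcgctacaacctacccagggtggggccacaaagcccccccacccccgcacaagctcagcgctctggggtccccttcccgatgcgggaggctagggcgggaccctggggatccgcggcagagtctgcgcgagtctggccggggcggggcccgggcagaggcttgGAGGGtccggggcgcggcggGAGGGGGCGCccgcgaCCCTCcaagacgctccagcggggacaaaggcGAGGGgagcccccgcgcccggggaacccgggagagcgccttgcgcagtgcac
Of these 8 windows, that of Marchf7 held the CTCF core, starting at base 47 of the window. The windows of Adgra3, Negr1 and Efna2 held AGGNGGCGC, those of Fads6, Dvl3 and Cacna1i held CCCTC alone of the 3, and that of Sdc4 held none of them.

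Over all falling pairs, 61 windows lay wholly inside the regions of 58 pairs, and 2174 windows lay inside those of 1870 background pairs. The CTCF core was present in 9.84% of the windows in falling pairs and in 16.1% of those in background pairs, a difference of -6.31 points (95% Newcombe interval -11.8 to 3.81). Of all 21238 listed promoters, 4.12% held it. AGGNGGCGC was found in 14.8% of windows in falling pairs, 16.3% of those in background pairs and 4.27% of all promoters. CCCTC was found in 80.3%, 81.0% and 69.6% of these 3 groups of windows. When the NMDA summit itself lay in the window, 3 of 32 windows in falling pairs held the core (9.38%), against 26.1% of 1103 windows in background pairs, a difference of -16.7 points (-23.4 to -1.68). These windows came from 31 and 1033 pairs, so some pairs gave more than 1. The comparison was not matched for strength in the control list. Within 1000 bp of a listed gene start, the median control −log10 p was 242 for falling pairs and 307 for background pairs, with upper quartiles of 354 and 644. Windows in falling pairs had a median GC content of 67.0% and 27.0 CpG dinucleotides, those in background pairs 64.0% and 23.5, and all promoters 56.3% and 13. A match is a run of letters and not a measured site. All intervals on shares cover counting error over regions only, and neighbouring regions share the same libraries.

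The values that chose the pairs were as follows. Falling pairs had a median NMDA percentile of 31.2 (range 0.823 to 67.4) and a median control percentile of 60.3 (26.7 to 92.8). Their median −log10 p was 49.8 in the NMDA list (19.3 to 156) and 215 in the control list (85.0 to 584). Background pairs had medians of 152 in the NMDA list and 234 in the control list. The median of the falling pairs in the control list was thus near that of the background. The control percentile is part of the rule that chose them, so this is a description only. Across all 28448 pairs the median NMDA percentile minus control percentile was 2.43 points, and 1.84% of all pairs (523) stood 25 or more points higher in the NMDA list. The choice of 25 points cuts through a continuous range. The members nearest to it were regions inside St6galnac3 at -25.11 points and regions nearest to Psmd11 and Zscan2 at -25 points each, to 2 decimals. Just outside it were a region inside Esyt2 at -24.99, one nearest to Peli2 at -24.95 and one at an end of Tatdn2 at -24.93 points.

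**Figure D1:**
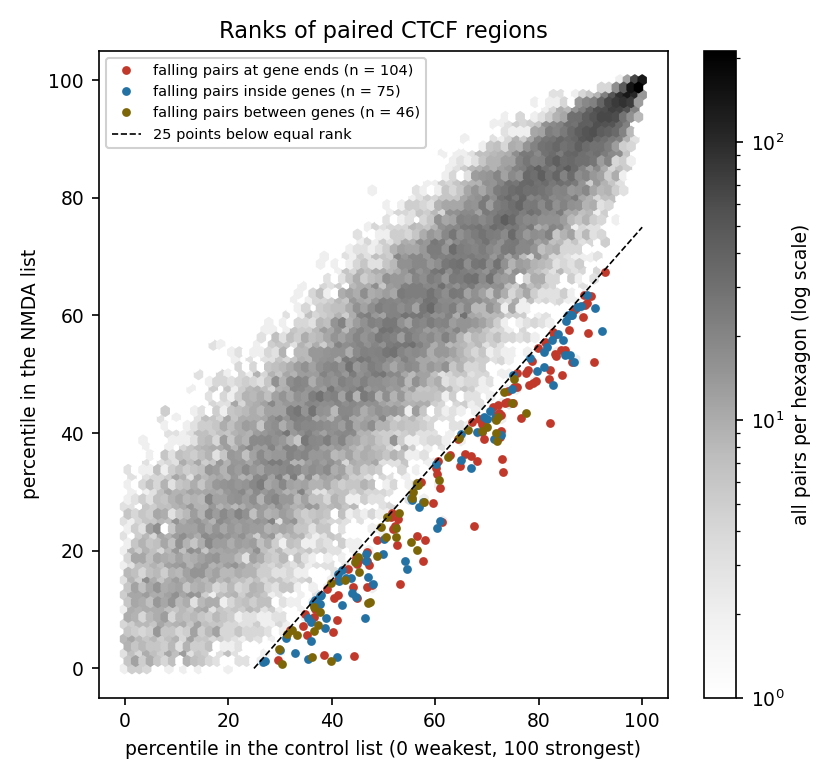
Percentile of the −log10 p in the NMDA list (vertical axis) against that in the control list (horizontal axis) for the 28448 pairs, with the falling pairs as points coloured by place. The 225 falling pairs reach NMDA percentiles of 0.823 to 67.4, and their control percentiles run from 26.7 to 92.8.

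Falling pairs, ranked by the sum of both NMDA replicates, were concentrated at gene ends, which was reversed when the first replicate column alone gave the rank (values below). A gene end here means at most 1 kb between the NMDA summit and an end of a protein-coding gene. Of the 225, 104 (46.2%, 95% Wilson interval 39.8 to 52.7) lay at a gene end, against 16% (15.5 to 16.5) of background pairs, a difference of 30.2 points (95% Newcombe interval 23.8 to 36.8). A further 75 (33.3%) lay inside a gene and away from its ends, against 42.7% of background pairs, which is -9.40 points (-15.3 to -2.97). That interval no longer left out 0 under 4 alternatives, with -0.524 points by the first replicate column alone, -3.07 with both columns, -3.60 with a gene end of 500 bp and -8.90 at a limit of 30 points. The remaining 46 (20.4%) lay between genes, against 41.3%, which is -20.8 points (-25.6 to -15.1). Within bands of control percentile, the share at gene ends was 34.6% of falling pairs against 13.6% of background pairs between 25 and 50, 47.2% against 11.5% between 50 and 75, and 60.3% against 22.6% between 75 and 100. In the top band 2 of 58 falling pairs (3.45%) lay between genes, against 38.9% of background pairs. The lower share inside genes left out 0 in the middle band only, at -18.1 points (-26.2 to -8.11). It was -6.21 points (-16.4 to 4.95) between 25 and 50 and -2.36 (-13.6 to 10.6) between 75 and 100.

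The gene ends concerned were mostly starts. This measure was added after the data were seen, and leaves out chromosome 18, for which no listed starts were used. Starts were also missing elsewhere, since only 17492 of 21887 protein-coding genes had a listed one. A falling summit on chromosome 4, 79 bp from a gene end, was 6792759 bp from the nearest listed start. Shares and distances below therefore depend partly on which starts were listed. Of 217 falling pairs, 103 (47.5%, 40.9 to 54.1) had the NMDA summit within 1000 bp of a listed start, against 11.6% (11.2 to 12) of background pairs. That is a difference of 35.9 points (29.3 to 42.5). Within 100 bp of a start lay 12.4% of falling pairs against 2.95% of background pairs, and the median distance to the nearest start was 1340 bp for falling pairs against 24286 bp for background pairs. Of falling pairs at gene ends, 85.0% were at a listed start, against 59.7% of background pairs at gene ends. Counted the other way, 3.77% of eligible pairs at starts were falling, against 0.475% of those between genes. Ends shared by several genes, whether starts or 3′ ends, made up 4.81% of the falling pairs at gene ends and 11.9% of the background pairs there, a difference of -7.13 points (-10.1 to -1.09). Bidirectional promoters were not counted apart, and at the region shared by Baz2b and Marchf7 only the Marchf7 end was assigned to a listed start.

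The place of a falling region depended on which of the 2 NMDA replicate columns supplied the rank. The NMDA list gives a −log10 p for each replicate beside their sum, and the sources used here do not say which replicate each column holds. The control list gives none. All 225 falling pairs lay below their control percentile in both columns, as did 5306 of the 23366 background pairs. The sum of these columns chose the falling pairs, so this is no separate support for a fall. A drop of 25 points or more was reached in both columns by 58 falling pairs (25.8%), in the first only by 47, in the second only by 114 and in neither alone by 6. Of all eligible pairs, 0.246% reached it in both columns, 4.20% in the first and 2.17% in the second. For the ranks by a column alone, a single NMDA replicate was set against the control list of both replicates. The counts that follow are therefore not like for like with the 225. Ranked by the first column alone, 992 pairs fell by 25 points, and gene ends held 9.07% of them against 16.6% of the rest, which is -7.52 points (-9.22 to -5.51). Listed starts then held 8.43% of the falling pairs and 12.1% of the rest, and regions between genes were 8.04 points more frequent among the falling pairs. Ranked by the second column alone, 512 pairs fell, and gene ends held 46.3% of them against 15.6% of the rest, a difference of 30.7 points. The concentration at gene ends therefore held in the sum and in the second column, and was reversed in the first column.

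Within the 225, gene ends made up 24 of the 58 pairs that dropped by 25 points in both columns (41.4%), 14 of the 47 that did so in the first only (29.8%, or 13.8 points above the background share, interval 2.66 to 28) and 64 of the 114 that did so in the second only (56.1%). These shares are of pairs already chosen by the sum of both columns. Falling pairs at gene ends had a median column percentile minus control percentile of -21.4 points in the first column and -32.9 in the second, and falling pairs between genes had -30.5 and -26.7. Background pairs showed the same tilt at starts, with medians of -0.208 points in the first column and -4.71 in the second, while background pairs between genes had 0.923 and 3.27. What made the 2 columns differ at gene starts was not tested.

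**Figure D2:**
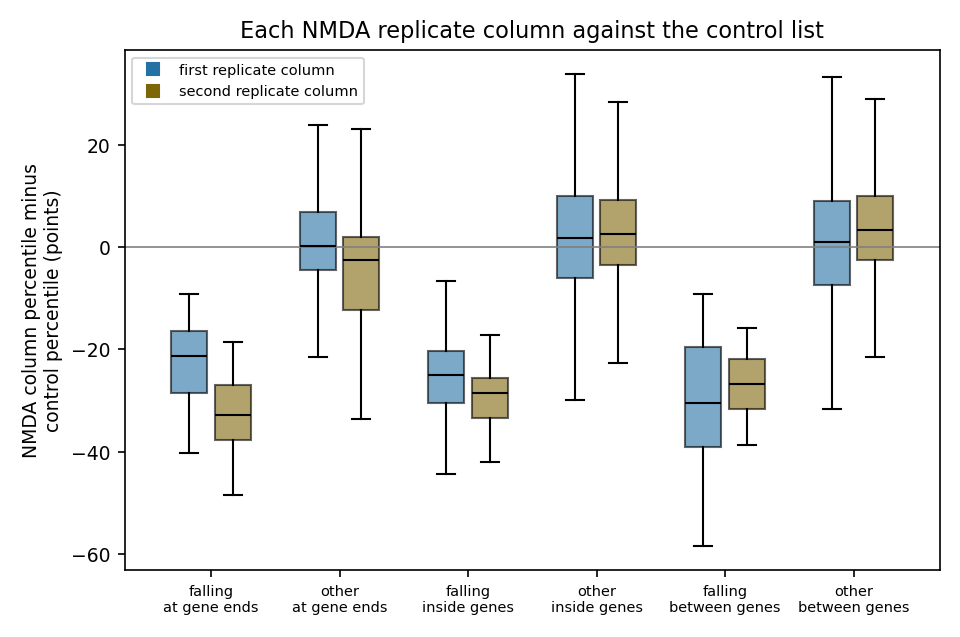
NMDA percentile of each replicate column minus the control percentile (points), for falling pairs and background pairs (other) by place; boxes span the quartiles with the median as a line, whiskers reach at most 1.5 box heights and outliers are not drawn. Falling pairs at gene ends have medians of -21.4 in the first column and -32.9 in the second, and the order turns round between genes, at -30.5 and -26.7.

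The share at starts was lower at each step of the rank difference up to 25 points, not only past the limit. Ranked by the sum, listed starts held 47.5% of pairs at -25 points or lower, 27.8% between -25 and -15, 19.8% between -15 and -5, 13.3% between -5 and 5, 6.36% between 5 and 15, 4.67% between 15 and 25, and 5.28% above 25. The second column alone gave 43.6% in the lowest step, 12.8% around 0 and 2.92% in the highest. The first column alone gave 8.43% in the lowest step, 15.5% around 0 and 8.33% in the highest, so no such order was present there.

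**Figure D3:**
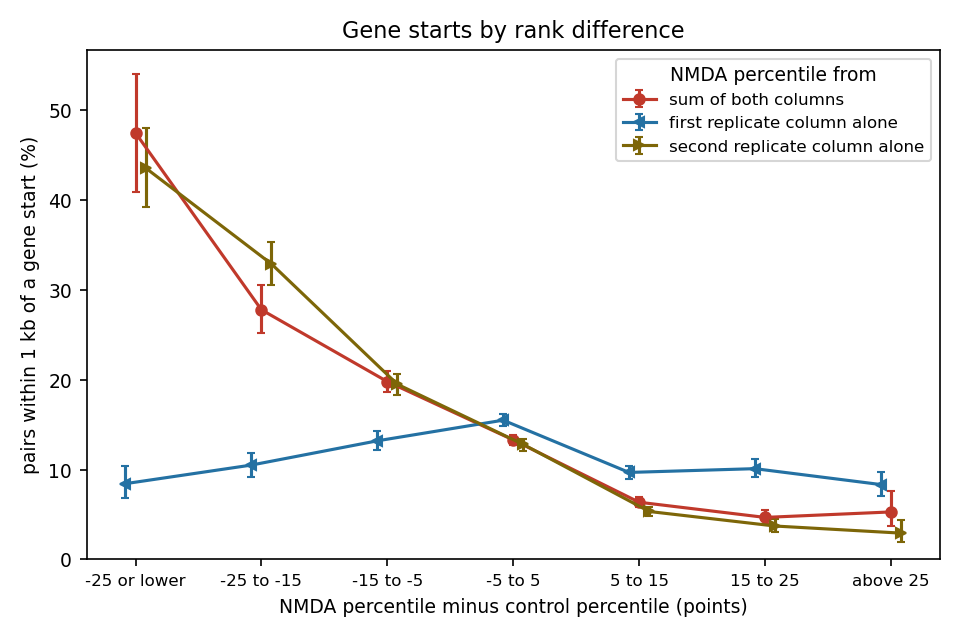
Share of pairs within 1000 bp of a listed gene start (%, with 95% Wilson intervals) in steps of the percentile difference, NMDA minus control, for the sum of both replicate columns and for each column alone. The share by the sum is 47.5% in the lowest step and 5.28% in the highest, and the line of the first column stays between 8.33% and 15.5%.

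Falling regions were also narrower in the NMDA list. Their median width was 995 bp in the NMDA list (365 to 3472) and 1190 bp in the control list (427 to 4338), whereas background regions were wider in the NMDA list, at 1367 bp against 1202 bp. The median of NMDA width minus control width was -164 bp for falling pairs (95% interval of the median -223 to -129) and 129 bp for background pairs. The NMDA region was the narrower one in 161 of 225 falling pairs (71.6%), against 34.1% of background pairs. At gene ends the medians of the falling pairs were 1069 bp in the NMDA list and 1296 bp in the control list, inside genes 986 bp in the NMDA list and 1188 bp in the control list, and between genes 900 bp in the NMDA list and 906 bp in the control list. Taken pair by pair, the median of NMDA width minus control width was -195 bp at gene ends (-292 to -108). It was -192 bp inside genes (-305 to -106) and -104 bp between genes (-188 to 24). Width comes from the same signal as the −log10 p that chose the pairs, so it is given as a description. Pairs that fell by the first column alone were 65.5 bp wider in the NMDA list, at the median.

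**Figure D4:**
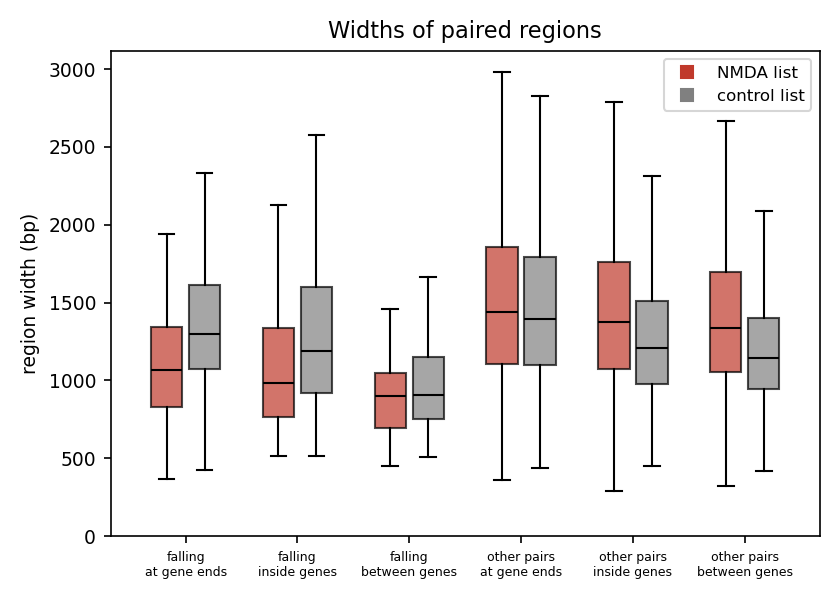
Width (bp) of the paired regions in the NMDA list and in the control list, for falling pairs and background pairs (other pairs) by place; boxes span the quartiles with the median as a line, whiskers reach at most 1.5 box heights and outliers are not drawn. Falling regions at gene ends have medians of 1069 bp in the NMDA list and 1296 bp in the control list.

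In 9 of the 225 falling pairs (4.00%) the control region overlapped more than 1 NMDA region, against 0.929% of background pairs, a difference of 3.07 points (1.19 to 6.50). Each NMDA region was counted only for the overlapping control region of nearest summit, so further overlaps were not counted. The difference was -0.158 points by the first replicate column alone, and 0.563 (-0.184 to 3.19) when pairs had to overlap by 50% of both regions. Between control percentiles of 25 and 50 the count was 0 of 78 falling pairs, against 0.612% of background pairs. The 9 pairs lay at or near C1ql2, Fam78b, Nr4a3, Cdk2ap1, Dusp7, Lect2, Fam120a, Adamts1 and Sncaip. In each of them the NMDA region that formed the pair was the strongest piece. At Nr4a3, chr4:48044425-48048762 was 1 control region of 4338 bp, and the NMDA list held 3 regions there of 619, 584 and 1426 bp, with percentiles of 28.7, 33.4 and 30.6 against 73.2 for the control region. At Dusp7 the control region of 1816 bp was overlapped by NMDA regions of 756 and 1398 bp, at percentiles of 41.8 and 38.6 against 82.1. The reverse, an NMDA region that overlapped several control regions, occurred in 0 of 225 falling pairs (Wilson interval up to 1.68%) and in 1.76% of background pairs.

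The falling pairs were scattered singly over the genome. The nearest eligible pair was itself falling for 2 of 225 (0.889%), against 0.920% of background pairs, and the median percentile difference of that neighbour was 1.80 points beside falling pairs and 1.81 points beside background pairs. The 2 were each other's neighbours on chromosome 2, inside Qser1 (chr2:104816893-104817439) and at the start of Prrg4 (chr2:104849436-104850292), 32603 bp apart. By chromosome the falling share of eligible pairs ran between 0.388% on chromosome 15 and 1.69% on chromosome 16 among the autosomes. It was 26 of 1565 on chromosome 1 and 2 of 491 on X, and of the 8 eligible pairs on Y none was falling.

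Of 21887 protein-coding genes, 110 (0.503%) had a falling pair at an end and 186 (0.850%) had one at an end or inside. Among genes that had any eligible pair in the same place the shares were 2.66% of 4135 and 2.09% of 8917. No gene held more than 1 falling pair.

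The 15 largest falls at gene ends came from genes of mixed function and are named here by their rank difference. Sdc4 encodes syndecan-4, a heparan sulfate proteoglycan of the cell surface. Its region (NMDA chr2:164442476-164443844) had a −log10 p of 16.7 in the first NMDA column and 23.4 in the second, 40.1 in their sum, and 257 in the control list. Its NMDA percentile was 24.2 and its control percentile 67.4, a difference of -43.3 points, the largest fall of all pairs. Both columns were low, at percentiles of 27.1 and 25. Myd88, the adaptor of Toll-like receptors, had values of 11.4 and 9.07 in the NMDA columns and 142 in the control list, with percentiles of 2.04 in the NMDA list and 44.4 in the control list (chr9:119339591-119340000). Dusp7, a phosphatase that acts on ERK kinases, had 45.7 and 23.8 in the NMDA columns and 380 in the control list. Its percentiles were 41.8 in the NMDA list and 82.1 in the control list, and the second column, at percentile 25.5, was the lower one by far.

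Nr4a3, an orphan nuclear receptor and an immediate early gene of activated neurons, had values of 34.2 and 19 in the NMDA columns and 298 in the control list (NMDA chr4:48045253-48045836). Its percentiles were 33.4 in the NMDA list and 73.2 in the control list, and again the second column was the lower one, at 19.3 against 51.9 in the first. Adgra3, an adhesion G protein-coupled receptor, stood at percentile 18.3 in the NMDA list and 57.7 in the control list. Fads6, of the fatty acid desaturase family, stood at 52.1 in the NMDA list and 90.7 in the control list, and was the strongest of these in the control list, with a −log10 p of 55.0 and 42.5 in the NMDA columns against 517 in the control list. Dvl3, a Dishevelled protein of Wnt signalling, stood at 35.7 in the NMDA list and 72.8 in the control list. The other large falls at gene ends had differences of -38.9 points at Lrrc3, -36.4 at the shared region of Baz2b and Marchf7, -36.3 at both the cell adhesion gene Negr1 and Sft2d2, -34.6 at Plekha8, -34.4 at the orphan receptor gene Gpr63, -34.0 at the transcription factor gene Twist2 and -33.9 at Cacna1i. All 15 of these regions lay at a start.

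**Figure D5:**
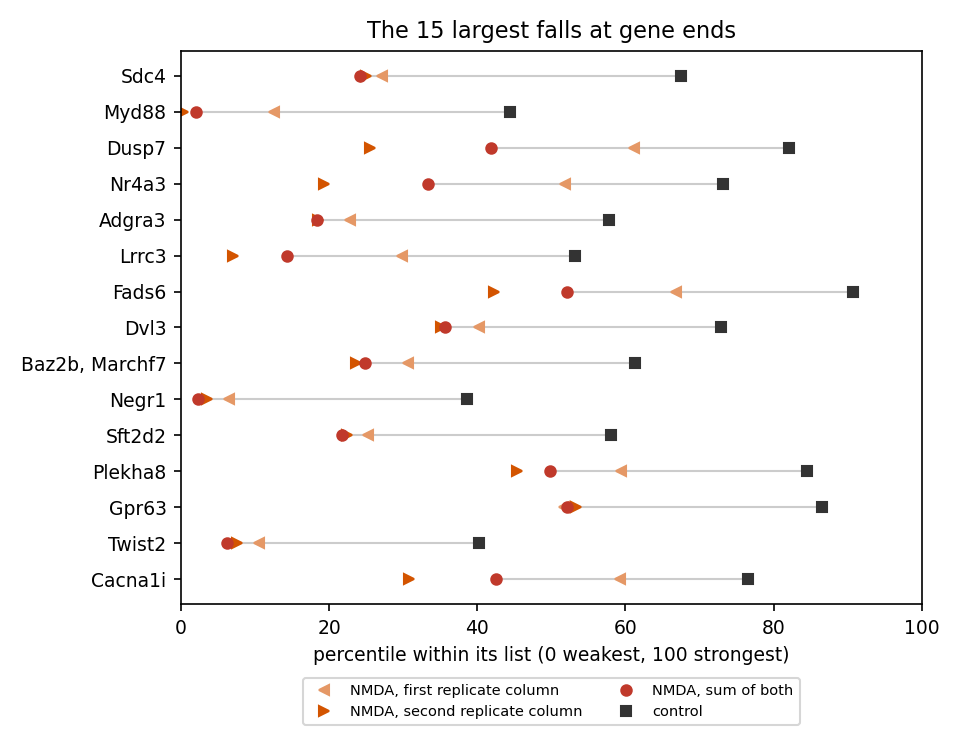
Percentile within its list (horizontal axis, 0 weakest to 100 strongest) of the 15 largest falls at gene ends, with 1 gene or gene pair per line: triangles are the NMDA replicate columns, circles the NMDA sum and squares the control list. Both NMDA columns lie left of the control square on every line, and at Dusp7 they are far apart, at 61.1 in the first column and 25.5 in the second.

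Inside a gene here means away from the ends of the gene's span, not away from all of its listed starts. The summits in Trpm3, Mafg and Mast4 lay 83, 389 and 517 bp from a listed start. The largest fall inside a gene was in Cbln2, which encodes a secreted organiser of synapses, with percentiles of 2.01 in the NMDA list and 41.1 in the control list (chr18:86712945-86713495). Cdh20, a cadherin, followed at 8.62 in the NMDA list and 46.5 in the control list, and its first column was near the bottom of the list, at percentile 0.0705 against 17.5 in the second. The next were Elapor2 at -37.6 points, Trmt1, a tRNA methyltransferase gene, at -36.6, and Antxr2 and the small Maf factor gene Mafg at -35.9 each. Trpm3, a cation channel gene, had the strongest control region of this group, at percentile 92.2, against 57.4 in the NMDA list. Its −log10 p was 48.6 and 66.3 in the NMDA columns and 560 in the control list. Bach2, a transcription factor gene, and Mast4, a kinase gene, stood at -34.8 and -34.7 points, and Tmem131 at -33.9.

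Between genes the largest falls were nearest to Map9 (-38.7 points, 12306 bp from the gene), Trhr (-36.4), Ptprt (-36.1), Gbe1 (-36.0 points, 627982 bp away) and Tra2b (-34.2). The region nearest to Map9 was among the weakest of the NMDA list, with 8.05 and 11.5 in its columns and percentile 1.22, against 39.9 in the control list.

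Genes of neuronal and housekeeping groups were read from 23 lists, 906 genes in all. A falling pair lay at an end of 5 of them, each from a different list. Of the immediate early genes, 1 of 9 with an eligible pair at an end had a falling one, Nr4a3. The 9 eligible pairs at their ends had a median NMDA minus control percentile of -12.2 points, with all 9 below 0 (-39.8 to -1.37). Over the 3839 eligible pairs at any gene end the median was -1.21, and 2292 of them were below 0. All 3 pairs of the list of GABA receptor and synthesis genes were below 0 too. These differences are the values that chose the falling pairs, so they are a description. The median of the immediate early pairs was -3.76 points by the first column and -17.3 by the second, where all gene ends had 0.0241 and -3.03. Other lists also had medians below that of all gene ends, at -17 points over 3 pairs for interneuron factors, -7.95 over 9 for calcium and sodium channels and -6.53 over 8 for glutamate receptors, so the fall was not shown to be particular to immediate early genes. Of the list of CTCF, cohesin and topoisomerase genes, 1 of 6 was falling, Yy1, which encodes a zinc-finger protein that also takes part in loops between promoters and enhancers. Its region stood at percentile 17.5 in the NMDA list and 47.1 in the control list, and its width was 594 bp in the NMDA list and 2197 bp in the control list. Of the glutamate receptor genes, 1 of 8 was falling, Grm4, a metabotropic receptor gene, at 39.4 in the NMDA list and 72.6 in the control list. Of the calcium and sodium channel genes, 1 of 9 was falling, Cacna1i, a T-type calcium channel gene, at 42.6 in the NMDA list and 76.5 in the control list. Of the axon guidance genes, 1 of 14 was falling, Efna2, an ephrin ligand gene, at 35.2 in the NMDA list and 68.2 in the control list.

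When the whole gene span was included, 5 of the 33 axon guidance genes with an eligible pair held a falling one (15.2%), against 2.09% of all such genes, which were not matched for length or number of pairs. Besides Efna2 these were the 3 guidance receptor genes Robo1 (-25.6 points), Robo2 (-25.4) and Robo3 (-26.0), all close to the limit of 25, and the semaphorin gene Sema5a (-31.1). The span of Bdnf, the neurotrophin gene induced later by activity, held a region 643 bp from a listed start, at percentile 5.26 in the NMDA list and 31.1 in the control list, with 8.87 and 14.2 in the NMDA columns and 96.8 in the control list (chr2:109693483-109694370). The others were the kainate receptor gene Grik3 at -25.1, the L-type calcium channel gene Cacna1d at -31.8, the potassium channel gene Kcnq5 at -26.6 and Cdh20. The summits in Cacna1d, Kcnq5 and Robo1 also lay near a listed start, at 462, 527 and 529 bp. In the remaining 15 lists no gene held a falling pair at an end or inside. Among genes with an eligible pair at an end these included 0 of 13 genes of synaptic release and scaffolds, 0 of 27 clustered protocadherins, 0 of 30 cytosolic ribosomal protein genes, 0 of 24 oxidative phosphorylation genes, 0 of 9 proteasome genes and 0 of 7 Hox genes. At the background of 2.66% of genes, counts of 0 or 1 in lists of this size are no result about a list.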

How the data were processed

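CTCF ChIP-seq was measured in NMDA-treated and control neurons, with 2 biological replicates and 2 inputs each, per the labels. FastQC, Trimmomatic, BWA, SAMtools and MACS2, with the builds mm10 and GRCm38.p6, are named in the submitters' processing notes, with no versions. The deposited lists have the layout of an irreproducible discovery rate (IDR) analysis, 1 list per condition over both replicates. Their −log10 p values (one per region, and in the NMDA list one per replicate) and their scores of 540 to 1000 are the authors', not normalized to depth. In all 36193 NMDA regions the deposited −log10 p equalled the sum of the 2 replicate columns within 0.001. The inputs have no list of their own here. Etoposide appears in the growth protocol but in no treatment label, and was not used for grouping.

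Pairing, ranking and counting were done in Python 3.11.15 with numpy 2.4.6, pandas 2.3.3, scipy 1.17.1 and matplotlib 3.10.9. Genes came from RefSeq for GRCm38.p6 (21887 protein-coding genes), and starts and promoter windows from RefSeq promoter tables of the same build (21263 starts of 17492 genes, none on chromosome 18). Shares have Wilson intervals and their differences Newcombe intervals at 95%, called past the threshold when they leave out 0. No p-value was computed, since each condition is 1 list. To check the code, the control list was copied with small shifts in position, and 200 regions were lowered in rank with no other noise. The pairing found 200 of 200 lowered regions and called 0 of 33615 others. That outcome was largely fixed by the noise-free design, so it gives no rate of false calls in the real lists. For 225 against 23366 independently drawn regions, the interval of a difference held the true value in 938 of 1000 draws at a difference of 0. At 10 points it did so in 936.

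The pairs and the gene lists were chosen with earlier results of these data known. Genes were named by rule, as the 15 largest falls at gene ends, 10 inside and 5 between genes, up to 4 members of each list, and the 3 pairs on either side of the limit. The 9 pairs whose control region overlaps several NMDA regions, Robo2 and the neighbouring pair Qser1 and Prrg4 were named after their values were seen. Alternatives varied the limit, the pairing, the ranking, the score, the replicate column and the distance to a gene end.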

Additional observations from a re-analysis of the deposited data

How the results depend on the processing

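With the rank taken from the first or the second NMDA replicate column alone, the number of falling pairs was 992 and 512, and the difference in share at gene ends was -7.52 and 30.7 points, at starts -3.65 and 32.3, inside genes -0.524 and -7.05, between genes 8.04 and -23.6, and for split control regions -0.158 and 3.81 points. The median width difference was 65.5 and -126 bp. The cause was not tested. Of the 225 pairs, 105 were also falling by the first column and 172 by the second. The number of falling pairs was 568 at a limit of 20 points, 75 at 30 points, 553 with percentiles taken within the pairs, and 58 when both columns had to fall by 25 points, a setting chosen after seeing the data. The share inside genes was no longer clear of the background at 30 points (-8.90), with a gene end of 500 bp (-3.60) or with both columns (-3.07), and that of split control regions was not with a reciprocal overlap of 50% (0.563). Listed genes with a falling pair at an end numbered 3 at 500 bp and 11 at 2 kb, against 5 at 1 kb. The share at gene ends stayed above the background in 14 of 15 settings. Most of these settings reused the rank by the sum and many of the same pairs, so they are not separate evidence. Ranked by each replicate column alone, the difference had opposite signs, as given above. Of the 225 pairs, 155 were also falling among regions with a score of at least 830. The signal column could not replace the −log10 p, because it holds a single constant in both lists. No paired analysis was possible because each condition is 1 list and the control list has no replicate columns.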
